A study of Homo sapiens with 12 samples.

Results

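MYH6, MYH7, MYL4 and MYL7 encode 2 heavy chains and 2 light chains of the myosin of heart muscle. They were taken by gene symbol from the values of 12 RNA libraries and are 4 of the 17096 genes listed there. The libraries come from H7, a human embryonic stem cell line, sampled at days 3, 7 and 15 of a directed differentiation into cardiomyocytes. At each day 2 libraries are labelled E2A-/- and 2 are labelled wild type, so there are 6 groups, and all groups share the H7 line and the differentiation. Day 3 cells are labelled as cardiac mesoderm, and cells of days 7 and 15 as cardiomyocytes. TCF3 is the current symbol of E2A, a transcription factor gene of the basic helix-loop-helix class. The sources used here give neither the targeted exon nor the number of mutant clones, nor whether the 2 libraries of a group came from separate cultures. The p-values therefore measure the spread between these libraries, which may be technical.

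The motor of the heart muscle fibre is a myosin with a pair of heavy chains, each carrying 1 essential and 1 regulatory light chain on its neck. Alpha heavy chain, from MYH6, hydrolyses ATP fast, and in the adult human heart it is the main form of the atria. Beta heavy chain, from MYH7, is slower and is the main form of the ventricles and of slow skeletal muscle. MYL4 encodes the essential light chain of the atria, which is also made in fetal ventricle and fetal skeletal muscle. MYL7 encodes the regulatory light chain of the atria, which is made throughout the early heart tube. The levels given here are FPKM, fragments scaled to transcript length and library depth, which so allow genes to be compared with each other.

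MYH6 and MYH7 lie side by side on the minus strand of chromosome 14 (GRCh38, GENCODE release 29). MYH7 spans chr14:23412738-23435718 with 40 exons in its longest coding transcript, and MYH6 spans chr14:23381990-23408277 with 39 exons. Between them lie 4460 bases. MYL4 is on the plus strand at chr17:47200446-47223679 with 8 exons, and MYL7 on the minus strand at chr7:44138864-44141332 with 6 exons. In an alignment of the heavy-chain coding sequences, 5278 of 5805 bases were identical, which is 90.9%. The longest identical run was 395 bases, and 21 runs reached 50 bases. Reads from such runs fit both genes. The lines that follow give the 60-base window of the coding sequences in which the heavy chains differ most, shown because a ratio of MYH7 to MYH6 rests on stretches of this kind. The 25 differing bases are in capitals, and the windows cover coding bases 1880 to 1939 of MYH6 and 1874 to 1933 of MYH7.
MYH6: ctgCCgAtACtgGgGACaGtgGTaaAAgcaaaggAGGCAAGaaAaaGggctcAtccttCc
MYH7: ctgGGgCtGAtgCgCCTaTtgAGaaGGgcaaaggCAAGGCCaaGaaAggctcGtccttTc

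Of all stretches of 100 bases in the MYH7 transcript, 5.16% occur unchanged in the MYH6 transcript, and at 150 bases the share is 4.14%. The sources used here do not say how reads that fit both were counted, so the split between the heavy chains is uncertain. MYH7 as a share of the summed FPKM of MYH6 and MYH7 was below that shared part of its transcript in 3 of the 4 groups of days 7 and 15. It was 0.0991% and 0.137% in labelled E2A-/- libraries and 1.59% and 1.56% in wild type at day 7, and 3.02% and 2.71% in labelled E2A-/- libraries of day 15. Wild type of day 15 lay above it, at 38.5% and 39.7%. In the labelled E2A-/- libraries of day 7, MYH6 signal counted as MYH7 could be at most these shares of 0.0991% and 0.137%. For the other groups that part was not tested. The antisense gene AL132855.1 overlaps MYH7, and MIR208A and MIR208B lie within MYH6 and MYH7. Whether strand was used in counting is not stated. MYL4 and MYL7 share no stretch of 50 bases.

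E proteins bind DNA at the E-box letters CANNTG, so the gene starts were read for that motif. RefSeq promoters (GRCh38.p14, 250 bases before the start to 50 after) were at hand for 2 of the 4 genes, MYL7 and MYH6, and not for MYH7 and MYL4. CANNTG matches are in capitals.
MYL7, chr7:44141283-44141582, minus strand: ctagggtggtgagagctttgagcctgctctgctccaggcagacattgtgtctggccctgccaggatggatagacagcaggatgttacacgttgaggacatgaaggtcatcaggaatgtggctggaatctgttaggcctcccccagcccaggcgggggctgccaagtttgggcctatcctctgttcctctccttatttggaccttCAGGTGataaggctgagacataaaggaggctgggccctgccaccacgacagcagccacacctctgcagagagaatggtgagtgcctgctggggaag
MYH6, chr14:23408224-23408523, minus strand: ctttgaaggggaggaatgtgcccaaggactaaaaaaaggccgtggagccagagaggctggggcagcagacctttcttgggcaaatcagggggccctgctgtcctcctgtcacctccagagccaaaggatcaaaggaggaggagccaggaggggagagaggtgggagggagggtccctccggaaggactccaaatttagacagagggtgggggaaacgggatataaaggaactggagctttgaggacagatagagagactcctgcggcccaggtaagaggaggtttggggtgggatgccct

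The MYL7 window holds 1 CANNTG match, CAGGTG at position -46, and 68.7% of all promoters in the table hold at least 1. It holds GATA, read on both strands, at -183, -77 and -41. The last of these begins with the final base of the CAGGTG match. GATA occurs in 49.7% of promoters. The MYH6 window holds no CANNTG. It holds GATA at -32 and -3, and TATAAA at -30, which overlaps a GATA match and occurs in 11.5% of promoters. A form of the MEF2 site, CTA and TAG with 4 free bases between them, occurs in 2.73% of promoters and is in neither window. These are matches of letters in a short window and do not show binding.

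The targeted gene passed the test as lower at no day in the libraries labelled E2A-/-. Its day 3 mean was lower in them, and its later means were higher. TCF3 averaged 147 ± 1.55 FPKM in them and 164 ± 21.6 FPKM in wild type at day 3. It averaged 176 ± 5.57 FPKM in the labelled E2A-/- libraries and 137 ± 1.96 FPKM in wild type at day 7, and 139 ± 43.4 FPKM in labelled E2A-/- and 86.3 ± 16.9 FPKM in wild type at day 15 (SD, n = 2 each). Only the day 15 difference passed the test, and as a rise (log2 change 0.66, adjusted p = 0.0234), a call that ended without labelled E2A-/- replicate 1 (0.34, adjusted p = 0.147) or wild-type replicate 1 (0.46, adjusted p = 0.167). The day 7 difference of TCF3 (log2 change 0.36) passed in 2 of its 12 alternatives, also as a rise. An mRNA level does not check a mutation that leaves the transcript in place, so the groups are named throughout by their label. FPKM summed to between 577716 and 734958 per library, replicates correlated across genes at r of 0.973 to 0.990, and no 2 libraries held identical values. RNA encoded by the mitochondrial genome made up 20.2% and 18.5% of all FPKM in labelled E2A-/- libraries of day 7 and 8.55% and 8.14% in wild type, while at day 15 it made up 13.9% and 14.3% in labelled E2A-/- libraries and 26.1% and 26.2% in wild type. The gap thus had opposite signs at the 2 days on which the myosins differed. With values scaled to nuclear genes alone the effects on MYH6, MYH7, MYL4 and MYL7 were -1.68, -4.15, -2.19 and -3.10 at day 7 and 0.39, -4.01, -1.34 and -2.29 at day 15, on the log2 scale. The spacing of low values gives a rough depth of 6900000 to 19000000 fragments per library. In bulk RNA, fewer cells of a type and less RNA per cell cannot be told apart, and this holds for all results that follow.

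**Figure D1:**
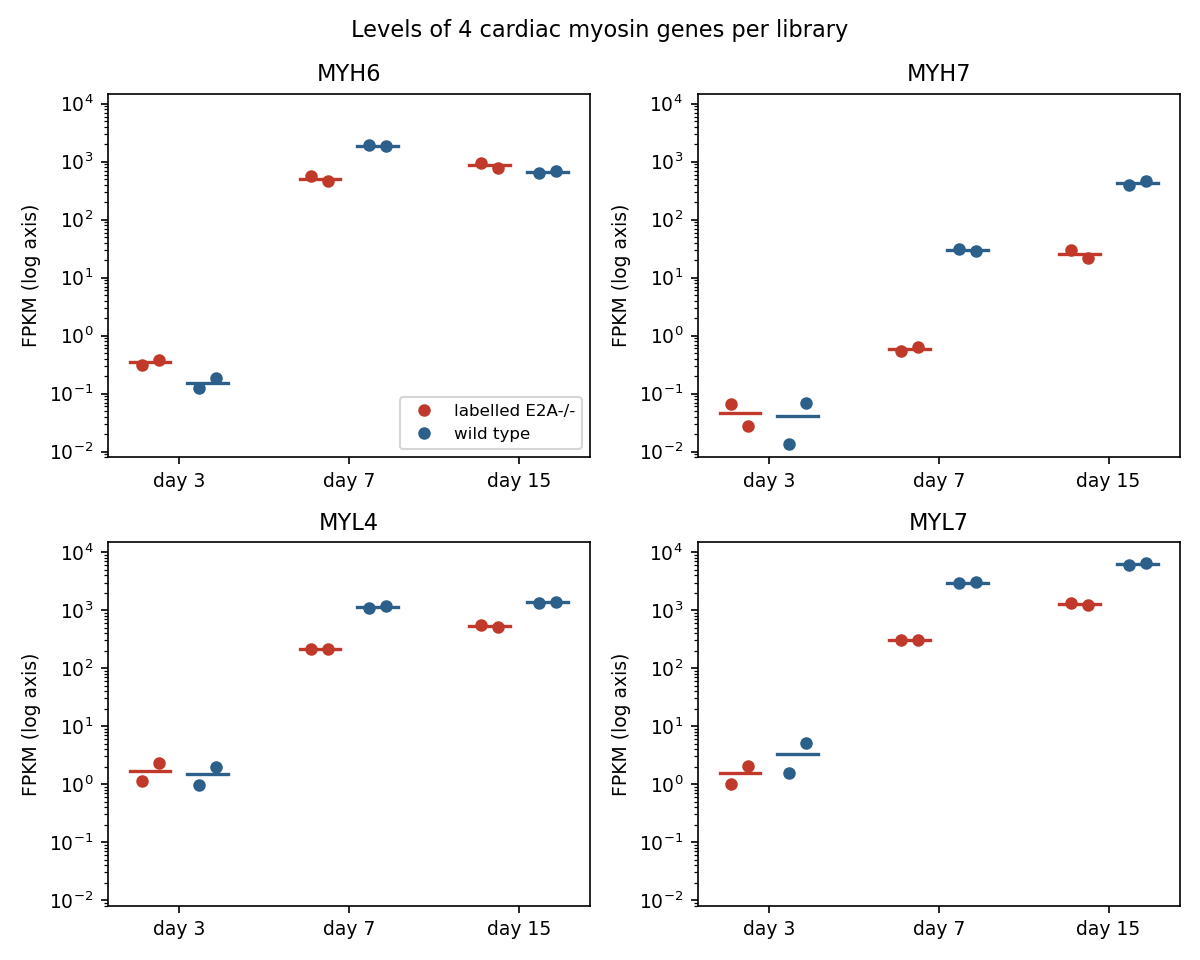
Level of MYH6, MYH7, MYL4 and MYL7 in each library (FPKM, log axis) at days 3, 7 and 15, with labelled E2A-/- libraries left of wild type and a bar at each group mean. At day 7 all 4 genes are lower in both labelled E2A-/- libraries, and at day 15 MYH6 alone is higher in them.

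Of the 2 cardiac heavy chains, MYH6 had the higher mean in each of the 6 groups. At day 3 it was close to absent, with 0.314 and 0.382 FPKM in the labelled E2A-/- libraries and 0.126 and 0.183 FPKM in wild type. At day 7 its level was 555 and 463 FPKM in labelled E2A-/- cells, against 1921 and 1848 FPKM in wild type. The groups were far apart, and the labelled E2A-/- mean was 3.7-fold lower. By day 15 its level was 959 and 786 FPKM in labelled E2A-/- cells, against 632 and 702 FPKM in wild type. Both labelled E2A-/- libraries now lay above both wild-type libraries, and their mean was 1.31 times the wild-type mean.

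The test on log2(FPKM + 1) found no passing MYH6 difference at day 3 (log2 change 0.22, SE 0.13, adjusted p = 0.235). MYH6 fell at day 7 (-1.89, SE 0.13, adjusted p = 4.54e-06) and rose at day 15 (0.38, SE 0.13, adjusted p = 0.0392) in the libraries labelled E2A-/-. The rise is a weak call. It ended without replicate 1 of the labelled E2A-/- group (0.24, adjusted p = 0.193) and without replicate 1 or 2 of wild type (0.31 and 0.46, adjusted p = 0.191 and 0.0675). It held without labelled E2A-/- replicate 2 (0.53, adjusted p = 0.0128), and adjusted p over all its alternatives ran from 0.0128 to 0.193.

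MYH7 was much lower in the labelled E2A-/- libraries at days 7 and 15. At day 3 it was listed at 0.0657 and 0.0272 FPKM in them and at 0.0134 and 0.0676 FPKM in wild type, levels that correspond to an estimated 0.916 to 4.56 fragments and carry no order. At day 7 it had 0.551 and 0.635 FPKM in labelled E2A-/- cells, against 31.1 and 29.3 FPKM in wild type, a 50.9-fold lower mean. The day 15 levels were 29.9 and 21.9 FPKM in labelled E2A-/- cells, against 395 and 462 FPKM in wild type, a 16.6-fold lower mean. The groups did not overlap at day 7 or at day 15.

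MYH7 fell at day 7 (log2 change -4.29, SE 0.17, adjusted p = 2.05e-07) and at day 15 (-4.01, SE 0.17, adjusted p = 3.92e-07), and at day 3 no difference passed (0.01, SE 0.17, adjusted p = 0.979). Both falls were the largest of the 4 genes at their day. Among all 17096 genes of a library, MYH7 ranked 15910 and 15737 by level in the labelled E2A-/- libraries of day 7, against 3387 and 3582 in wild type. On day 15 its ranks were 3428 and 4232 in labelled E2A-/- libraries and 163 and 149 in wild type, while MYH6 ranked 81 and 97 in the labelled E2A-/- libraries and 99 and 91 in wild type.

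The ratio of MYH7 to MYH6 in a library does not depend on how that library was scaled. As log2 it was -9.98 and -9.51 in labelled E2A-/- cells of day 7 and -5.95 and -5.98 in wild type. On day 15 it stood at -5.00 and -5.17 in labelled E2A-/- cells and -0.68 and -0.60 in wild type. In shares, MYH7 made up 3.02% and 2.71% of the heavy-chain FPKM in labelled E2A-/- cells of day 15 and 38.5% and 39.7% in wild type. MYH6 thus outweighed MYH7 by 32.1 and 35.9 to 1 in the labelled E2A-/- libraries of day 15 and by 1.6 and 1.52 to 1 in wild type.

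The mean log2 ratio was lower in labelled E2A-/- cells by -3.78 at day 7 (-9.74 ± 0.33, against -5.97 ± 0.023 in wild type) and by -4.45 at day 15 (-5.09 ± 0.116, against -0.64 ± 0.052 in wild type; SD, n = 2 each). These are 13.7-fold and 21.8-fold lower ratios. Both gaps exceed the spread between replicates many times over, but a two-sided exact permutation test of 2 against 2 libraries cannot go below p = 0.333, the value it gave at both days. With a pseudocount of 1 FPKM the day 7 gap narrowed to -2.40. At day 3 the ratio ran from -3.81 to -1.43 over the 4 libraries, the groups overlapped (exact permutation p = 0.667), and both genes were under 1 FPKM.

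**Figure D2:**
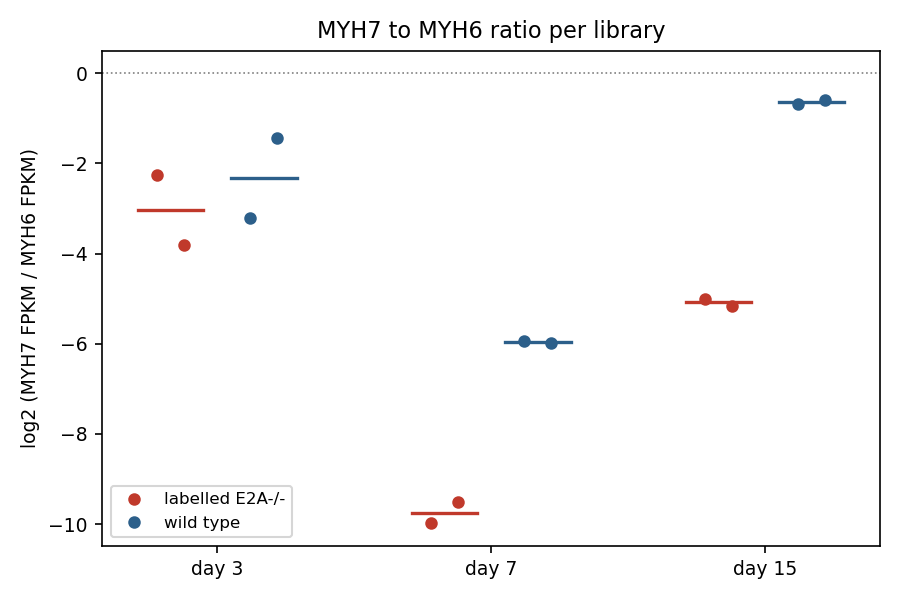
log2 of MYH7 over MYH6 FPKM in each library by day, labelled E2A-/- left of wild type, with a bar at each group mean. At day 15 wild-type libraries sit near -0.6 and labelled E2A-/- libraries near -5, and at day 3 both genes are under 1 FPKM and the groups overlap.

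The sum of both heavy chains moved less than their ratio. It was 556 and 464 FPKM in labelled E2A-/- cells of day 7, against 1952 and 1877 FPKM in wild type. By day 15 the sum was 989 and 808 FPKM in labelled E2A-/- cells, against 1027 and 1164 FPKM in wild type. The day 15 groups lay close, with the higher labelled E2A-/- library just under the lower wild-type one, while their composition differed as given above.

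Both light chains were lower in the labelled E2A-/- libraries at days 7 and 15. MYL7 was the most abundant of the 4 genes in wild type at both days. It had 300.6 and 304 FPKM in labelled E2A-/- cells of day 7, against 2994 and 3007 FPKM in wild type, a 9.93-fold lower mean. Its day 15 levels were 1350.05 and 1204 FPKM in labelled E2A-/- cells, against 5961 and 6584 FPKM in wild type, a 4.91-fold lower mean. MYL7 ranked 46 and 55 among all genes in the labelled E2A-/- libraries of day 15 and 11 and 11 in wild type, where it alone held 0.873% and 0.94% of summed FPKM. In the labelled E2A-/- libraries that share was 0.222% and 0.208%.

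MYL4 had 214 and 213 FPKM in labelled E2A-/- cells of day 7, against 1103 and 1159 FPKM in wild type. Its mean was 5.3-fold lower, with no overlap. By day 15 MYL4 stood at 550.2 and 522 FPKM in labelled E2A-/- cells, against 1311 and 1406 FPKM in wild type, a 2.53-fold lower mean. In the test MYL7 fell at day 7 (log2 change -3.31, SE 0.32, adjusted p = 3.45e-05) and day 15 (-2.30, SE 0.32, adjusted p = 0.000437). MYL4 fell at day 7 (-2.40, SE 0.21, adjusted p = 1.97e-05) and day 15 (-1.34, SE 0.21, adjusted p = 0.000825).

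At day 3 neither light chain passed. MYL4 had 1.13 and 2.27 FPKM in labelled E2A-/- cells and 0.959 and 1.98 FPKM in wild type (log2 change 0.13, SE 0.21, adjusted p = 0.707). MYL7 had 1.02 and 2.08 FPKM in labelled E2A-/- cells and 1.56 and 5.13 FPKM in wild type (-0.67, SE 0.32, adjusted p = 0.159). The MYL7 value rests on single libraries, at -1.30 without wild-type replicate 1 (adjusted p = 0.00574) and -0.04 without wild-type replicate 2, and it passed with a term for the replicate number (adjusted p = 0.0314).

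The balance of the light chains also differed. MYL7 over MYL4 was 1.41 and 1.43 in labelled E2A-/- cells of day 7 and 2.72 and 2.59 in wild type. The day 15 values were 2.45 and 2.31 in labelled E2A-/- cells and 4.55 and 4.68 in wild type. The labelled E2A-/- libraries were thus below wild type at both days, and the ratio was higher at day 15 than at day 7 in both genotypes. This ratio was described without a test. MYL2 and MYL3, the light chains of the ventricles, were not analysed here.

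The 4 counts read as follows against all genes. At day 3, 0 of the 4 genes passed the test in either direction, where 23.6% of the 16295 genes tested did, 9.51% rising and 14.1% falling. At day 7 all 4 fell, where 42% of genes passed, 22.1% rising and 19.9% falling. At day 15, 3 fell and MYH6 rose, where 35.1% passed, 16.2% falling and 18.9% rising. Scaled to the sum of nuclear genes, rising genes made up 62.3% of the calls in place of 40.3% at day 3, and 68.2% in place of 52.6% at day 7. The 4 log2 changes of days 7 and 15 run from -4.29 to 0.38, and the median over all genes was 0.06 at day 7 and 0.03 at day 15.

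**Figure D3:**
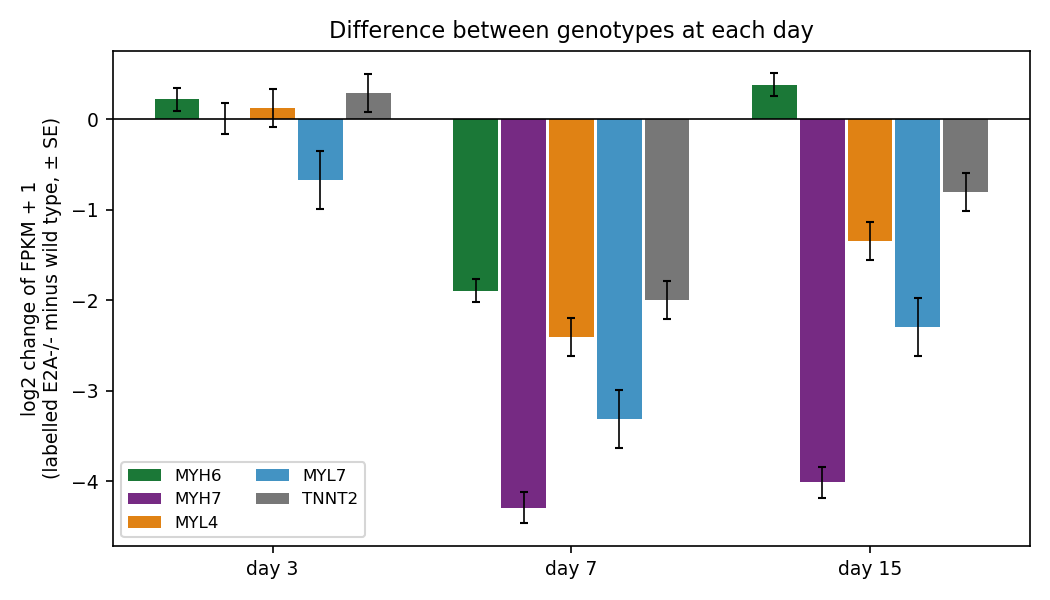
log2 change of labelled E2A-/- against wild type for the 4 genes and TNNT2 at days 3, 7 and 15, with bars of 1 SE from the fit over 12 libraries. At day 15 MYH6 lies at 0.38, above zero, while MYH7 stays at -4.01.

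The genotype effect itself changed between days, which was tested as a difference of differences. From day 3 to day 7 it moved downwards for all 4 genes, by -2.12 for MYH6 (SE 0.18, adjusted p = 5.69e-05), -4.3 for MYH7 (SE 0.24, adjusted p = 5.53e-06), -2.53 for MYL4 (SE 0.30, adjusted p = 0.000382) and -2.64 for MYL7 (SE 0.45, adjusted p = 0.00306). Over all genes 20.2% passed this test, 8.9% downwards. At day 3 MYH6 and MYH7 were under 1 FPKM, where log2(FPKM + 1) keeps any genotype effect small. Their changes thus largely restate the day 7 effects of -1.89 and -4.29. MYL4 and MYL7 were also low at day 3, at 0.959 to 5.13 FPKM. From day 7 to day 15 the effect on MYH6 moved up by 2.27 (SE 0.18, adjusted p = 2.3e-05) and that on MYL4 by 1.06 (SE 0.30, adjusted p = 0.02), where 31.7% of genes passed and 16.6% moved up. With scaling to nuclear genes, upward moves made up 37.7% of these calls in place of 52.2%. The changes of MYH7 (0.28, SE 0.24, adjusted p = 0.406) and MYL7 (1.01, SE 0.45, adjusted p = 0.113) did not pass.

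Some of these calls are narrow. The MYL4 call ended without wild-type replicate 1 of day 7 (1.10, adjusted p = 0.0501), wild-type replicate 2 of day 7 (1.02, adjusted p = 0.0624), labelled E2A-/- replicate 2 of day 7 (1.06, adjusted p = 0.0506) or wild-type replicate 1 of day 15 (1.01, adjusted p = 0.0633). With a pseudocount of 0.1 it also ended (adjusted p = 0.0913), while the MYH7 change then passed (1.39, adjusted p = 0.0182). The MYL7 change passed with a term for the replicate number (adjusted p = 0.0188) and on the compared groups alone (adjusted p = 0.00368).

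TNNT2, the cardiac troponin T of the thin filament, gives a measure of sarcomere RNA that does not contain myosin. It had 237 and 182 FPKM in labelled E2A-/- cells of day 7, against 810.2 and 852 FPKM in wild type, and 1070.5 and 735 FPKM in labelled E2A-/- cells of day 15, against 1479 and 1622 FPKM in wild type. It fell at day 7 (log2 change -1.995, SE 0.21, adjusted p = 5.19e-05) and day 15 (-0.80, SE 0.21, adjusted p = 0.0125). The day 15 call ended without labelled E2A-/- replicate 2 (-0.53, adjusted p = 0.0819) or wild-type replicate 2 (-0.74, adjusted p = 0.0757).

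Set over TNNT2 in the same library, the 4 myosins parted. These ratios rest on the choice of TNNT2, as other sarcomere genes differed by other amounts. At day 7 TNNC1 had 50.7 FPKM in labelled E2A-/- cells and 557 FPKM in wild type. TTN had 14.2 FPKM in labelled E2A-/- cells and 19.1 FPKM in wild type at that day. Ratios to those genes were not analysed. log2 of MYH6 over TNNT2 was 1.23 and 1.35 in labelled E2A-/- cells of day 7 and 1.25 and 1.12 in wild type, so the groups overlapped. By day 15 that ratio was -0.16 and 0.10 in labelled E2A-/- cells and -1.23 and -1.21 in wild type, with the labelled E2A-/- libraries higher. MYH7 over TNNT2 was -8.75 and -8.16 in labelled E2A-/- cells of day 7 and -4.70 and -4.86 in wild type. On day 15 MYH7 over TNNT2 was -5.16 and -5.07 in labelled E2A-/- cells and -1.90 and -1.81 in wild type.

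The light chains were lower relative to TNNT2 as well. MYL7 over TNNT2 was 0.34 and 0.74 in labelled E2A-/- cells of day 7 and 1.89 and 1.82 in wild type, and 0.33 and 0.71 in labelled E2A-/- cells of day 15 and 2.01 and 2.02 in wild type. Within each genotype that ratio hardly differed between the days. MYL4 over TNNT2 was -0.15 and 0.23 in labelled E2A-/- cells of day 7 and 0.44 and 0.44 in wild type. The day 15 values of MYL4 were -0.96 and -0.49 in labelled E2A-/- cells and -0.17 and -0.21 in wild type, so both days kept the groups apart by a smaller gap than for MYL7.

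**Figure D4:**
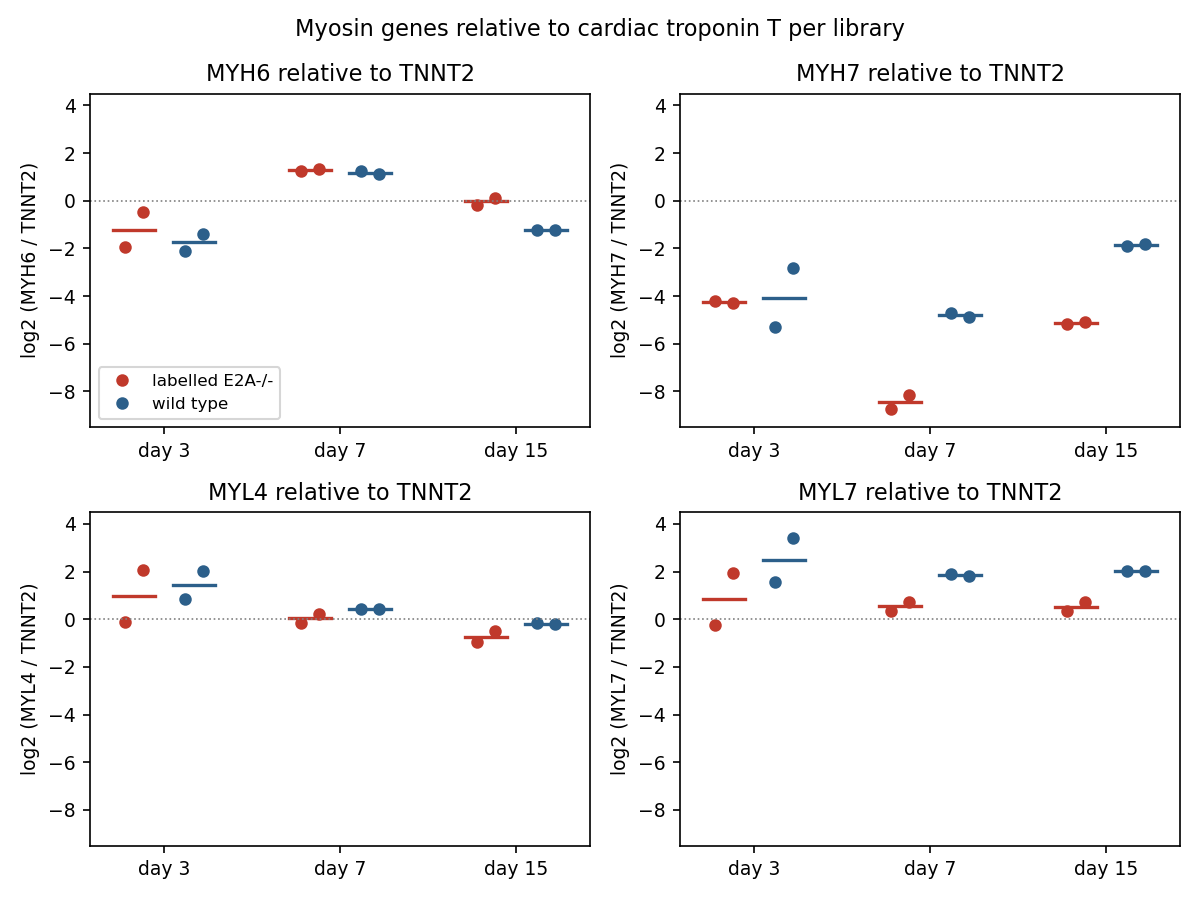
log2 of each myosin gene over TNNT2 in each library of days 3, 7 and 15, labelled E2A-/- left of wild type. At day 3 TNNT2 was at 0.483 to 1.22 FPKM, so the ratios of that day rest on values near the floor. MYH6 overlaps between genotypes at day 7 and is higher in labelled E2A-/- libraries at day 15, while MYH7 and MYL7 are lower in them at both days.

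In labelled E2A-/- cells all 4 genes rose between day 3 and day 7, where 28.6% of genes changed, 17.3% rising. The changes in log2(FPKM + 1) were 8.56 for MYH6 (adjusted p = 5.25e-11), 6.93 for MYL7 (adjusted p = 1.78e-07), 6.34 for MYL4 (adjusted p = 2.06e-08) and 0.61 for MYH7 (adjusted p = 0.0228). For MYH7, under 1 FPKM at both days, that scale understates the change, and the ratio of its means was 12.8. The MYH7 call ended without any 1 of the 4 libraries (0.57 to 0.64, adjusted p = 0.0633 to 0.0924) and with a term for the replicate number (adjusted p = 0.142). Between days 7 and 15 all 4 rose again, where 28.4% of genes changed, 13.3% rising. MYH7 rose by 4.06 (adjusted p = 5.52e-07), MYL7 by 2.07 (adjusted p = 0.00101), MYL4 by 1.32 (adjusted p = 0.00116) and MYH6 by 0.77 (adjusted p = 0.00151).

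Wild-type cells followed another course. Between days 3 and 7, MYH6, MYL7, MYL4 and MYH7 rose by 10.67, 9.57, 8.87 and 4.91 in log2(FPKM + 1). That scale understates rises from values near the floor, most of all that of MYH7. As ratios of means the rises were 12200-fold, 897-fold, 770-fold and 745-fold, which are rough because the day 3 means are so low. Over all genes 43.7% changed, 21.1% rising and 22.6% falling. Between days 7 and 15, MYH7 rose by 3.78 (adjusted p = 2.22e-07) and MYH6 fell by 1.50 (adjusted p = 8.92e-06), where 52.3% of genes changed, 25.5% rising and 26.8% falling (60.1% of the calls rising with scaling to nuclear genes, in place of 48.7%). MYL7 rose by 1.06 (adjusted p = 0.0173), and with any 1 of the 4 libraries left out this no longer passed (0.99 to 1.13, adjusted p = 0.0541 to 0.0836). MYL4 did not pass (0.26, adjusted p = 0.312), although it did in a fit on the compared groups alone (adjusted p = 0.0139). MYH6 therefore moved in opposite directions between days 7 and 15 in the genotypes, up in labelled E2A-/- cells and down in wild type.

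By level, the groups ranked alike for MYL4 and MYL7. The order was wild type of day 15, wild type of day 7, labelled E2A-/- of day 15, labelled E2A-/- of day 7 and then both groups of day 3, which overlapped. For MYH6, wild type of day 7 was highest at 1884 ± 51.3 FPKM, followed by labelled E2A-/- of day 15 at 873 ± 123, wild type of day 15 at 667 ± 49.5 and labelled E2A-/- of day 7 at 509 ± 65.2 FPKM (SD, n = 2 each), with no overlap between neighbours. For MYH7, wild type of day 15 was highest at 429 ± 47.1 FPKM. Labelled E2A-/- of day 15 (25.9 ± 5.68 FPKM) and wild type of day 7 (30.2 ± 1.31 FPKM) came next and overlapped, ahead of labelled E2A-/- of day 7 at 0.593 ± 0.0596 FPKM.

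Labelled E2A-/- cells of day 15 were set beside wild-type cells of day 7, with no test, since day and genotype both differ. The ratio of their means was 0.858 for MYH7, 0.474 for MYL4, 0.463 for MYH6 and 0.426 for MYL7, and 1.09 for TNNT2. MYH7 was 3.02% and 2.71% of the heavy-chain FPKM in the labelled E2A-/- libraries of day 15, against 1.59% and 1.56% in the wild-type libraries of day 7.

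Other myosin II genes were taken as a list of 15 heavy chains and 14 light chains, of which 8 and 8 were listed and tested, the 4 genes above included. Among heavy chains, 2 rose and 0 fell at day 3 in the labelled E2A-/- libraries (median log2 change 0.20, over all genes -0.01), 0 rose and 3 fell at day 7 (-0.10, over all genes 0.06), and 1 rose and 6 fell at day 15 (-0.88, over all genes 0.03). Over all genes 23.6%, 42% and 35.1% passed at these days, so the 2 of 8 at day 3 and 3 of 8 at day 7 are near the background. The 2 that rose at day 3 were the nonmuscle chains MYH10 (109 FPKM in labelled E2A-/- cells, 74.2 FPKM in wild type; log2 change 0.55, adjusted p = 0.00472) and MYH14 (11.6 FPKM in labelled E2A-/- cells and 7.04 FPKM in wild type; 0.65, adjusted p = 0.0148). The MYH14 call ended without wild-type replicate 1 or without either labelled E2A-/- replicate (adjusted p = 0.057 to 0.103).

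Apart from MYH6 and MYH7, the day 7 fall was that of MYH9, the main nonmuscle heavy chain, at 172 FPKM in labelled E2A-/- cells and 218 FPKM in wild type (log2 change -0.34, adjusted p = 0.026). It did not pass without any 1 of the 4 libraries (adjusted p = 0.0647 to 0.124) or when scaled to nuclear genes (-0.14, adjusted p = 0.252). At day 15 MYH7B, a slow-type heavy chain gene that hosts MIR499A, had 5.44 FPKM in labelled E2A-/- cells and 30.5 FPKM in wild type (-2.27, SE 0.24, adjusted p = 7.8e-05). MYH11, the smooth muscle heavy chain, had 2.08 FPKM in labelled E2A-/- cells and 8.21 FPKM in wild type (-1.57, adjusted p = 0.000988). MYH14 (-0.78, adjusted p = 0.00404) and MYH10 (-0.44, adjusted p = 0.00908) fell by less, and the MYH10 call ended without wild-type replicate 2 (adjusted p = 0.0596).

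**Figure D5:**
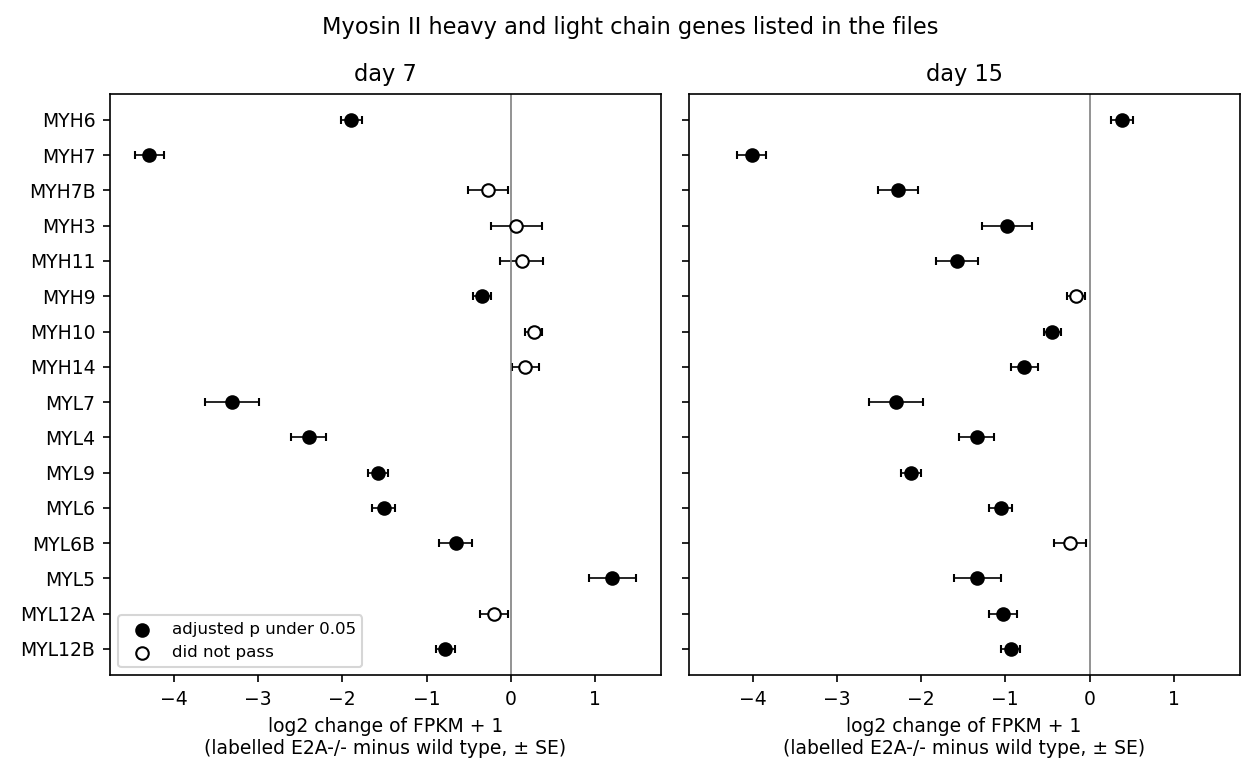
log2 change of labelled E2A-/- against wild type for the 8 heavy and 8 light chain genes listed, at days 7 and 15, with bars of 1 SE. Filled points passed the adjusted threshold of 0.05. At day 15 MYH6 alone lies right of zero among genes that passed.

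Among light chains, 0 rose and 3 fell at day 3 (median log2 change -0.53), 1 rose and 6 fell at day 7 (-1.15) and 0 rose and 7 fell at day 15 (-1.19), where 14.1%, 19.9% and 16.2% of all genes fell. MYL9, a regulatory light chain of smooth muscle and nonmuscle cells, fell at all 3 days. It had 12.9 FPKM in labelled E2A-/- cells and 40.8 FPKM in wild type at day 3 (-1.59, adjusted p = 1.72e-05), 86.9 FPKM in labelled E2A-/- cells and 261 FPKM in wild type at day 7 (-1.58, adjusted p = 7.12e-06) and 189 FPKM in labelled E2A-/- cells and 825 FPKM in wild type at day 15 (-2.12, adjusted p = 1.57e-06). MYL12B, another nonmuscle regulatory chain, also fell at each day (-0.78, -0.78 and -0.93). MYL12B has a near-identical copy, MYL12A, and reads shared between them could have been split, so its values are uncertain. MYL6, the essential light chain of nonmuscle and smooth muscle myosin, fell at day 7 (336 FPKM in labelled E2A-/- cells, 950.4 FPKM in wild type; -1.51, adjusted p = 2.21e-05) and day 15 (601 FPKM in labelled E2A-/- cells and 1251 FPKM in wild type; -1.06, adjusted p = 0.000267). Its day 3 call (-0.53, adjusted p = 0.0177) ended without either wild-type replicate or labelled E2A-/- replicate 1 (adjusted p = 0.0675 to 0.116), and when scaled to nuclear genes.

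MYL5, a regulatory-type light chain, was the light chain that rose at day 7, with 7.91 FPKM in labelled E2A-/- cells and 2.85 FPKM in wild type (1.21, adjusted p = 0.0059). It fell at day 15, with 5.97 FPKM in labelled E2A-/- cells and 16.1 FPKM in wild type (-1.33, adjusted p = 0.00442). Falls that passed were thus not confined to the heart muscle chains MYL4 and MYL7.

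The sum over 6 of 6 smooth muscle markers (ACTA2, TAGLN, CNN1, MYH11, SMTN and LMOD1) was also lower in labelled E2A-/- libraries at days 7 and 15. It was 176 to 194 FPKM in labelled E2A-/- libraries of day 7 and 1030 to 1060 FPKM in wild type, and 386 to 455 FPKM in labelled E2A-/- libraries of day 15 and 1820 to 1990 FPKM in wild type. ACTA2 and TAGLN make up most of that sum. At each of these days 4 of the 6 fell and 2 did not pass, where 19.9% and 16.2% of all genes fell. At day 7 MYH11 (2.66 FPKM in labelled E2A-/- cells, 2.36 FPKM in wild type) and SMTN (25.6 and 23.2 FPKM) had slightly higher means in labelled E2A-/- cells. The part of this marker sum in the results for MYL9, MYL6 and MYH11 was not tested, and MYH11 is itself in that list.

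Of 17 thick filament and myosin assembly genes, 8 were listed and tested. In the labelled E2A-/- libraries 1 rose and 0 fell at day 3 (median log2 change -0.11), 1 rose and 2 fell at day 7 (-0.04), and 1 rose and 4 fell at day 15 (-0.38). With 23.6%, 42% and 35.1% of all genes passing at these days, the day 7 count is near the background. MYOM1, the myomesin that links thick filaments at the M-band, had 4.01 FPKM in labelled E2A-/- cells and 25.4 FPKM in wild type at day 7 (-2.40, adjusted p = 3.81e-06), and 39.9 FPKM in labelled E2A-/- cells and 112 FPKM in wild type at day 15 (-1.46, adjusted p = 9.79e-05). TTN, titin, which spans from Z-disc to M-band, did not pass at day 7 (14.2 FPKM in labelled E2A-/- cells, 19.1 FPKM in wild type; -0.42, adjusted p = 0.22) and fell at day 15 (27.1 FPKM in labelled E2A-/- cells and 109 FPKM in wild type; -1.99, adjusted p = 0.00031). HSP90AA1, a chaperone, fell at day 15 (-0.69, adjusted p = 0.00293). HSP90AB1, its paralog, fell at day 7 (-0.42, adjusted p = 0.00455) and rose at day 15 (0.74, adjusted p = 0.000228), and the day 7 call ended when scaled to nuclear genes. Both chaperones have near-identical copies in the genome, which makes their values uncertain too. MYBPC3, which encodes the myosin-binding protein of the cardiac thick filament, was not analysed here.

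Of 10 genes for light-chain kinases and myosin phosphatase subunits, 9 were listed and 8 tested. Of the 8, 2 rose and 1 fell at day 3, 1 rose and 2 fell at day 7, and 0 rose and 4 fell at day 15 (median log2 changes -0.04, -0.40 and -0.53), where 23.6%, 42% and 35.1% of all genes passed. MYLK3, the kinase of the cardiac regulatory light chain, had 1.33 FPKM in labelled E2A-/- cells and 3.38 FPKM in wild type at day 3 (-0.92, adjusted p = 0.0026). At day 7 it had 18.1 FPKM in labelled E2A-/- cells and 83.7 FPKM in wild type (-2.16, adjusted p = 7.34e-06), and at day 15 it had 55.2 FPKM in labelled E2A-/- cells and 78.7 FPKM in wild type (-0.50, adjusted p = 0.0314). The day 15 call ended without any 1 of the 4 libraries (adjusted p = 0.06 to 0.156). MYLK, the smooth muscle and nonmuscle kinase, rose at day 3 (5.59 FPKM in labelled E2A-/- cells, 2.47 FPKM in wild type; 0.94, adjusted p = 0.0105), a call lost without labelled E2A-/- replicate 1 or wild-type replicate 1 (adjusted p = 0.0682 and 0.0916), and at day 7 (10.5 FPKM in labelled E2A-/- cells, 3.05 FPKM in wild type; 1.50, adjusted p = 0.000396). The phosphatase subunit PPP1CB also rose at day 3 (0.50, adjusted p = 0.0151), lost without labelled E2A-/- replicate 1 or wild-type replicate 2 (adjusted p = 0.116 and 0.126). At day 15 the falls included the phosphatase targeting subunits PPP1R12C (-1.44, adjusted p = 0.000336) and PPP1R12A (-1.33, adjusted p = 0.000332) and ROCK1, a kinase that inhibits the phosphatase (-1.37, adjusted p = 0.00163).

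Regulators known to act on cardiac myosin genes were a list of 21, of which 20 were listed and tested. In the labelled E2A-/- libraries 2 rose and 4 fell at day 3, 2 rose and 12 fell at day 7 (median log2 change -0.77, over all genes 0.06), and 6 rose and 4 fell at day 15 (0.12, over all genes 0.03). Over all genes 23.6%, 42% and 35.1% passed at these days, so by number the 6 of 20 at day 3 are near the background. Among the 4 falls of day 3 were HAND1 (22.25 FPKM in labelled E2A-/- cells, 51.8 FPKM in wild type, log2 change -1.19) and NKX2-5 (0.265 and 2.29 FPKM, -1.37). Day 3 means of GATA4 and GATA6 were 10.9 and 14.2 FPKM in labelled E2A-/- cells, against 37.05 and 43.1 FPKM in wild type. At day 7 HAND1, a basic helix-loop-helix factor of the early heart, had 22.7 FPKM in labelled E2A-/- cells and 147 FPKM in wild type (-2.64, adjusted p = 5.34e-07). NKX2-5, a homeobox factor of cardiac progenitors, had 43.7 FPKM in labelled E2A-/- cells and 213 FPKM in wild type (-2.26, adjusted p = 1.79e-05), and TBX20, a T-box factor, fell by 1.48 (adjusted p = 8.8e-05). NR2F1, a nuclear receptor that marks atrial cardiomyocytes in stem cell cultures, had 11.5 FPKM in labelled E2A-/- cells and 0.668 FPKM in wild type (2.92, adjusted p = 5.39e-06).

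At day 15 NR2F1 was again higher, with 15.9 FPKM in labelled E2A-/- cells and 0.941 FPKM in wild type (3.13, adjusted p = 4.85e-06). TBX5, a T-box factor of the first heart field and atria, had 21.9 FPKM in labelled E2A-/- cells and 2.46 FPKM in wild type (2.70, adjusted p = 1.27e-05). IRX4, a homeobox factor of the ventricles, had 15.3 FPKM in labelled E2A-/- cells and 2.07 FPKM in wild type (2.41, adjusted p = 2.66e-05). HOPX, a homeodomain protein that does not bind DNA, had 0.887 FPKM in labelled E2A-/- cells and 10.4 FPKM in wild type (-2.64, adjusted p = 1e-04).

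Markers of the labelled cell type were checked without any myosin gene. The sum over 8 of 10 cardiomyocyte markers (TNNT2, TNNC1, TNNI1, TNNI3, ACTN2, TTN, RYR2 and NKX2-5) was 448 to 481 FPKM in labelled E2A-/- libraries of day 7 and 2230 to 2350 FPKM in wild type. For day 15 the sum was 1530 to 1920 FPKM in labelled E2A-/- libraries and 3330 to 3560 FPKM in wild type. The label of cardiomyocytes thus had its markers in every library of these days, at lower sums in the labelled E2A-/- ones. By marker, 7 of 8 fell at day 7, where 19.9% of all genes fell. At day 15, 5 of 8 fell and 3 did not pass, where 16.2% of all genes fell. NKX2-5 then had 143 FPKM in labelled E2A-/- cells and 136 FPKM in wild type. MYBPC3 and PLN were not analysed here.

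Markers of other cells moved too. POU5F1, SOX2 and LIN28A, genes of pluripotent cells, summed to 1070 to 1140 FPKM in labelled E2A-/- libraries of day 7 and 728 to 754 FPKM in wild type, and to 416 to 444 FPKM in labelled E2A-/- libraries of day 15 and 90.8 to 110 FPKM in wild type. POU5F1 did not pass at either day, with 33.3 FPKM in labelled E2A-/- cells and 30.1 FPKM in wild type at day 15, so the sums differ through LIN28A and SOX2. MYH7 is also the slow chain of skeletal muscle, and 5 of 13 skeletal muscle markers (PAX3, MYH3, ACTA1, TNNT1 and CKM) summed to 103 to 114 FPKM in labelled E2A-/- libraries of day 15 and 350 to 395 FPKM in wild type. ACTA1, TNNT1 and CKM are also found in cardiomyocytes. PAX3 went the other way, with 13.1 FPKM in labelled E2A-/- cells and 2.08 FPKM in wild type. Endoderm markers (3 of 5) summed to 29.7 to 31.7 FPKM in labelled E2A-/- libraries of day 15 and 130 to 150 FPKM in wild type. That gap is mostly APOA1 (22.2 FPKM in labelled E2A-/- cells, 128 FPKM in wild type). FOXA2 (5.36 and 6.20 FPKM) and SOX17 (3.18 and 5.26 FPKM) differed by less. Endothelial markers (5 of 5) summed to 64.3 to 73.5 FPKM in labelled E2A-/- libraries of day 15 and 74.3 to 75.8 FPKM in wild type, a sum carried by KDR (48.3 FPKM in labelled E2A-/- cells, 65.9 FPKM in wild type). The other 4 had higher means in labelled E2A-/- cells, such as CDH5 (6.67 FPKM, against 2.22 FPKM in wild type), and over the list 2 rose and 1 fell. Neural markers (3 of 6) summed to 28.2 to 30.1 FPKM in labelled E2A-/- libraries and 29.9 to 32.5 FPKM in wild type at that day. The part of these cells in the myosin results was not tested.

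The genes whose course over the 12 libraries was most like that of each myosin were found by Pearson correlation of log2(FPKM + 1) among 12597 genes, as a description in which all points share the days and genotypes. For MYH6 they were MYOCD (r = 0.996), the cardiac and smooth muscle coactivator of SRF, and MEF2C (0.995), a MADS-box factor of muscle, followed by ADAMTS9, TNNI1 and GATA2 (0.988 to 0.990). MYOCD was at 24.9 FPKM in labelled E2A-/- cells and 63.1 FPKM in wild type at day 7, and at 31.1 FPKM in labelled E2A-/- cells and 32.3 FPKM in wild type at day 15. MEF2C was at 66.6 FPKM in labelled E2A-/- cells and 113 FPKM in wild type at day 7, and at 86.0 FPKM in labelled E2A-/- cells and 65.5 FPKM in wild type at day 15.

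For MYH7 the nearest was LIMS2 (r = 0.998), a LIM protein of integrin adhesions, at 9.85 FPKM in labelled E2A-/- cells and 48.7 FPKM in wild type at day 15. NEXN, nexilin of the Z-disc, was among the next 4 (r = 0.986 to 0.987, with ARMCX3, COMMD3 and MGST3) and was at 29.3 FPKM in labelled E2A-/- cells and 224 FPKM in wild type at day 15. MYL4 and MYL7 were each other's nearest gene (r = 0.994), and JPH2, junctophilin of the cardiac dyad, was near both. PKP2, plakophilin of the desmosome, was near MYL7 (r = 0.994). Among the 4 myosins, MYH6 and MYH7 were the least alike (r = 0.706), MYH7 stood at 0.818 to MYL4 and 0.863 to MYL7, and MYH6 at 0.983 to MYL4 and 0.961 to MYL7.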

How the data were processed

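RNA of 12 libraries (H7 cells at days 3, 7 and 15, labelled E2A-/- or wild type, 2 each) was sequenced on an Illumina instrument, per the labels' protocols. The values the authors deposited are FPKM per gene symbol, 1 file a library. That unit is inferred from the values: sums differ between libraries, and low values step with gene length. BWA and GRCh38 (hg38) are named in the submitters' processing notes. The quantifying program, its annotation and strand setting, and how multiply placed reads were counted, are not given there or in the labels.

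Genes reaching 1 FPKM in 2 or more libraries were tested (16295, with 801 left out) by limma 3.58.1 in R 4.3.3, with its trend, on log2(FPKM + 1). Fold changes on this scale understate those of low genes. A model of 6 group means on 12 libraries (6 residual degrees of freedom) gave 9 contrasts. Two-sided p-values were adjusted over all tested genes (Benjamini-Hochberg, threshold 0.05). The MYH7 to MYH6 ratio was compared by exact permutation tests, and other ratios of 2 genes were described without a test. Replicate numbers were not used to pair libraries. The code was tested on simulated data. Symbols that occur more than once (9 symbols, 18 rows) are not named.

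The depth estimate uses 863 genes that have 1 annotated transcript, 1500 bases or longer. As only 45.5% to 66.7% of their low values came within 0.1 of a whole fragment, no counts were rebuilt and no interval was drawn.

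Members and gene lists were chosen with earlier results of these data known. The text names the 4 myosins, TCF3 and TNNT2 whatever they show. It also names some list members with a group mean of at least 5 FPKM (up to 8), and genes among the 5 most correlated with each myosin. Some members with larger changes than those named were left out, such as MYL12A at day 15 (log2 change -1.03). A result for 1 list member is not reported here. Alternatives were 2 rescalings, 2 filters, a pseudocount of 0.1, no trend, a replicate block, the compared groups alone, and each library left out. Sequences came from GENCODE release 29 and RefSeq, read with Biopython 1.88.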

Additional observations from a re-analysis of the deposited data

Results flagged for a closer look

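The genotype effect on all 4 myosin genes differed between days 3 and 7 by a test of the difference itself (limma, adjusted over all genes). The change was -2.12 for MYH6, -4.3 for MYH7, -2.53 for MYL4 and -2.64 for MYL7 on the log2 scale. For MYH6 and MYH7, near the floor at day 3, this largely restates the day 7 effect. From day 7 to day 15 the genotype effect differed for MYH6 (2.27) and MYL4 (1.06). The MYH6 effect was negative at day 7 and positive at day 15. With 2 libraries a group, no library could be tested as standing apart from its group.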

How the results depend on the processing

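The day 7 effects of the 4 genes and the day 15 effects of MYH7, MYL4 and MYL7 kept their direction and passed in all 12 alternatives. Over 36 tested results on the 4 genes, 428 of 461 alternatives kept direction and side of the threshold. For the other named genes it was 641 of 693, and calls that a left-out library ended are given beside them or were not named. Where an alternative differed and nothing in its construction accounts for it, the cause was not tested.

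Leaving out 1 library gave 1990 to 2503 genes past the threshold at day 3 (3849 with all), 4498 to 5241 at day 7 (6852), 3803 to 5524 at day 15 (5723), 2947 to 3284 for day 7 against 3 in labelled E2A-/- cells (4668), 2902 to 4897 for day 15 against 7 (4628) and 1920 to 2558 for the change of effect from day 3 to day 7 (3285). Log2 changes of day 3 then ran from -0.029 to 0.046 for MYH7, -0.18 to 0.44 for MYL4, -1.30 to -0.037 for MYL7 and -1.60 to 0.19 for the MYH7 to MYH6 ratio, so the signs of the MYH7, MYL4 and ratio values at that day are not fixed. MYH6 at day 15 ran from 0.24 to 0.53.

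A pseudocount of 0.1 made MYH6 pass at day 3 (0.82, adjusted p = 0.00431). MYH6 at day 15 (0.38) no longer passed with that pseudocount (adjusted p = 0.0805), without the trend (0.0726), with the replicate block (0.0767) or with the compared groups alone (0.147). That last fit called 3657 genes at day 15 and 2084 for day 15 against 7 in labelled E2A-/- cells, but 3988 at day 3, 7037 at day 7 and 9097 for day 15 against 7 in wild type, the last 3 above the counts of the fit on all groups. A pseudocount of 1 moved the day 7 ratio to -2.40. No value was had for MYH6 and MYH7 at day 3 in the fit on those groups alone, as both failed its filter.

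Over the genes tested, differences between replicates correlated between genotypes at r = 0.037, 0.024 and -0.121 at days 3, 7 and 15. Such values cannot show whether libraries with the same number shared a culture or batch. At day 3 MYL4 and MYL7 were higher in replicate 2 of both genotypes. The replicate block called 2947, 6117 and 4964 genes at these days, 2435 and 1912 for the labelled E2A-/- course, and gave MYL7 at day 3 -0.67 (adjusted p = 0.0314). Crossed pairing at day 15, added after the data were seen, called 5740.

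Scaling to nuclear genes moved the median of all genes to 0.12 at day 3, 0.22 at day 7, 0.17 for wild type from day 7 to 15 and -0.17 for the change of effect from day 7 to 15. The share of calls that were higher became 62.3% (from 40.3%), 68.2% (52.6%), 60.1% (48.7%) and 37.7% (52.2%). The myosin effects of day 7 were then -1.68, -4.15, -2.19 and -3.10 (MYH6, MYH7, MYL4, MYL7), and TCF3 at day 3 was 0.02 in place of -0.15. Depth limits day 3, where MYH7 rests on few fragments.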
